A study of Bos taurus with 12 samples.

Results

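MiR-204 and miR-211 (bta-miR-204 and bta-miR-211 in the table) are a pair of near-identical miRNAs that carry the same seed, the stretch at the 5′ end by which a miRNA recognises its target mRNAs. They were taken by name from the deposited table of miRNA expression in the mammary gland of Chinese Holstein cows, and make up 2 of its 388 mature miRNAs, each listed with a single precursor. The 12 small RNA libraries came from 12 different cows. The cows were grouped by a high or a low milk protein percentage in herd records of their previous lactation. Those sampled in lactation formed HP (high) and LP (low), and those sampled when not lactating formed HD (high) and LD (low). Each group had 3 libraries, written HP1, HP2 and HP3 and so on. The lactation biopsies were taken between 70 and 85 days in milk. The non-lactating biopsies were taken between 24 and 35 days after dry-off and between 20 and 39 days before calving. Every direction given below follows these names, as the columns of the deposited table carry them. No treatment, allele or agent is named for any group. All libraries are of bulk tissue, so fewer cells of a type and less RNA per cell cannot be told apart.

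Each of the pair lies inside a gene of the TRPM cation channel family. In the bovine reference annotation MIR204 is spanned by TRPM3 and MIR211 by TRPM1, and intronic miRNAs of this kind are often made from the transcript of their host. MiR-211 is best known from pigment cells, where TRPM1 and its miRNA are under the transcription factor MITF. MiR-204 is known from the retinal pigment epithelium, the choroid plexus and the kidney. Both act on the mRNA of RUNX2, a transcription factor of bone cells, and are known in the choice of mesenchymal cells between bone and fat. Because they share a seed, their predicted targets are largely the same, while their genes are transcribed separately.

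The deposited values are in TPM, here reads on a miRNA scaled to the same total in each library, with no correction for length. Values were divided by a size factor per library (median of ratios over all miRNAs) and are called normalized TPM. The value of a single read, found from the spacing of the lowest values, gave 6026797 to 23577942 counted reads per library, and 3 reads corresponded to 0.127 to 0.498 TPM. The totals went with stage, with medians of 10233600 in HP and 11231900 in LP against 22038600 in HD and 20895800 in LD. These totals rest on 42 to 119 low values per library. Read numbers given below are TPM divided by the value of a single read and rounded, and were not read from a table of counts, so the intervals built on them carry that limit. MiRNAs of epithelium were present in every library, with a summed level of 7 listed members between 17984 and 59998 normalized TPM. The 3 miRNAs of erythrocytes (miR-144, miR-451 and miR-486) summed to 2536 normalized TPM in LP1, 1926 in LP3 and 8023 in LD2, against 278 to 1253 in the other 9 libraries. These 3 libraries therefore stand apart in blood-derived signal, and results that rest on them are given with and without them. Leaving out LP1 and LP3 together, or all 3, was not planned beforehand.

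MiR-204 was a miRNA of intermediate level in all 4 groups. Its deposited values were 141.87, 97.55 and 122.34 TPM in HP1, HP2 and HP3, and 37.68, 106.22 and 36.45 TPM in LP1, LP2 and LP3. In the non-lactating period they were 131.88, 176.92 and 69.01 TPM in HD1, HD2 and HD3, and 110.35, 91.72 and 62.98 TPM in LD1, LD2 and LD3. The highest value was 4.85 times the lowest, and the 2 lowest libraries were LP1 and LP3. Between 289 and 3899 reads stood behind each of these values, and miR-204 ranked between 116 and 165 of the 388 miRNAs.

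MiR-211 was rare in lactation and low to moderate in non-lactating cows. Its deposited values were 1.16, 0.90 and 1.76 TPM in HP1, HP2 and HP3, and 0.30, 0.71 and 0.38 TPM in LP1, LP2 and LP3. They were 19.64, 15.16 and 18.75 TPM in HD1, HD2 and HD3, and 7.19, 1.86 and 6.75 TPM in LD1, LD2 and LD3. The 4 groups followed each other without overlap in the order HD, LD, HP and LP. In deposited TPM 17.3% of all miRNAs did not overlap between HP and LP, 7.22% between HD and LD, and 15.2% between the stages. The lactation values rest on 7, 11 and 18 reads in HP and on 4, 8 and 3 reads in LP, so counting error alone is wide there: the 3 reads of LP3 have an exact 95% Poisson interval of 0.619 to 8.77 reads. In the non-lactating period the values rest on 40 to 442 reads. Such intervals cover counting error only.

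**Figure D1:**
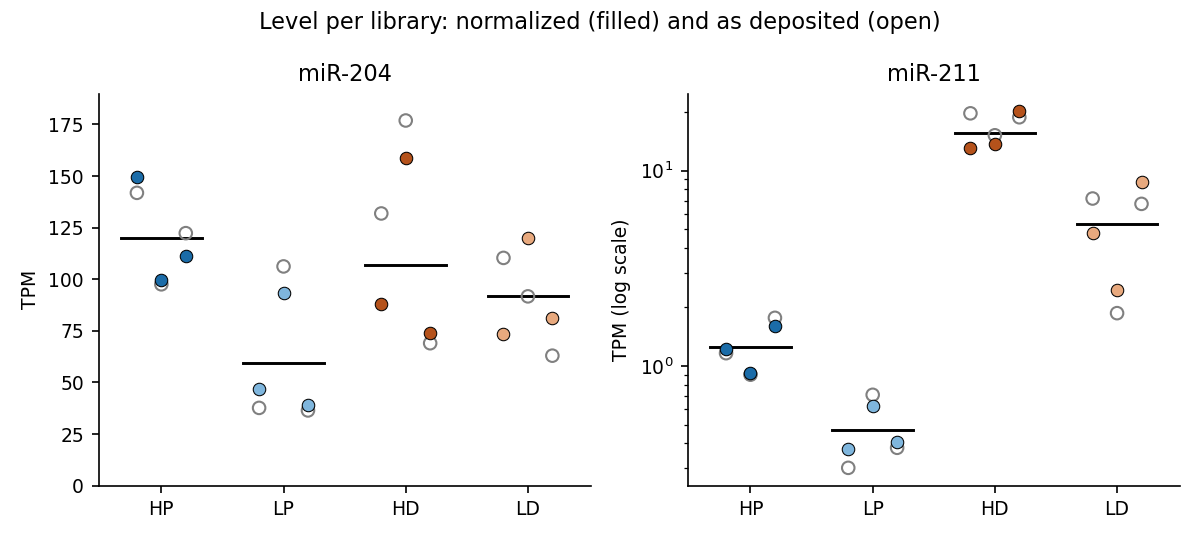
Level of miR-204 (left, linear axis) and miR-211 (right, log axis) in TPM for each library of the groups HP, LP, HD and LD. Filled points are normalized TPM, open circles are TPM as deposited, and the lines are means of normalized TPM over 3 libraries. MiR-204 stays between 36.45 and 176.92 TPM, while miR-211 lies below 2 TPM in lactation and reaches 19.64 TPM in HD.

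After normalization the order of the group means of miR-204 was HP, HD, LD and LP, with 120 ± 26.2, 107 ± 45.4, 91.7 ± 24.9 and 59.7 ± 29.4 normalized TPM (mean ± SD, n = 3 libraries each). The libraries of each pair of neighbours in this order overlapped, and none of these steps was set apart from the spread between cows. For miR-211 the order was HD, LD, HP and LP, with 15.6 ± 3.91, 5.32 ± 3.18, 1.25 ± 0.342 and 0.467 ± 0.136 normalized TPM. Each step down in this order was larger than the SD of either neighbour, and no library of a lower group reached a library of the group above it. In normalized TPM 20.6% of all miRNAs did not overlap between HP and LP, 9.54% between HD and LD, and 21.9% between the stages. The share for LD and HP, or for the whole order, was not computed.

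The comparison of lactation with the non-lactating period separated the members. The members were chosen with earlier results of these libraries known, so the p-values given for this comparison are not independent of the data that led to the choice. MiR-211 was lower in lactation by a log2 fold change of -2.43 (SE 0.24, adjusted p = 1.79e-05, limma over all 388 miRNAs with Benjamini-Hochberg adjustment) on the log2(normalized TPM + 1) scale. Its mean was 0.857 normalized TPM over 6 libraries of lactating cows and 10.5 over 6 of non-lactating cows, a ratio of 12.2. The lowest non-lactating library was 1.52 times the highest lactation library, so the stages did not overlap. By size of log2 fold change it ranked 12 of 388. For miR-204 the log2 fold change was -0.23 (SE 0.27, adjusted p = 0.525, limma), with means of 89.9 normalized TPM in lactation and 99.3 without lactation. The libraries of the stages overlapped, and a difference of this size is within the spread between cows.

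Many miRNAs differed between the stages: 44.3% of the 388 passed the adjusted threshold and 21.9% did not overlap in normalized TPM, so a pass by itself does not set miR-211 apart. With 1 added to each value, the log2 fold change of miR-211 understates the ratio of its low lactation levels, and it was -3.32 with 0.1 added and -1.29 with 5 added. It was -2.56 without LP1, LP3 and LD2. For miR-204 the value without those 3 libraries was 0.27 (adjusted p = 0.557, limma), the opposite sign, and not past the threshold either.

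**Figure D2:**
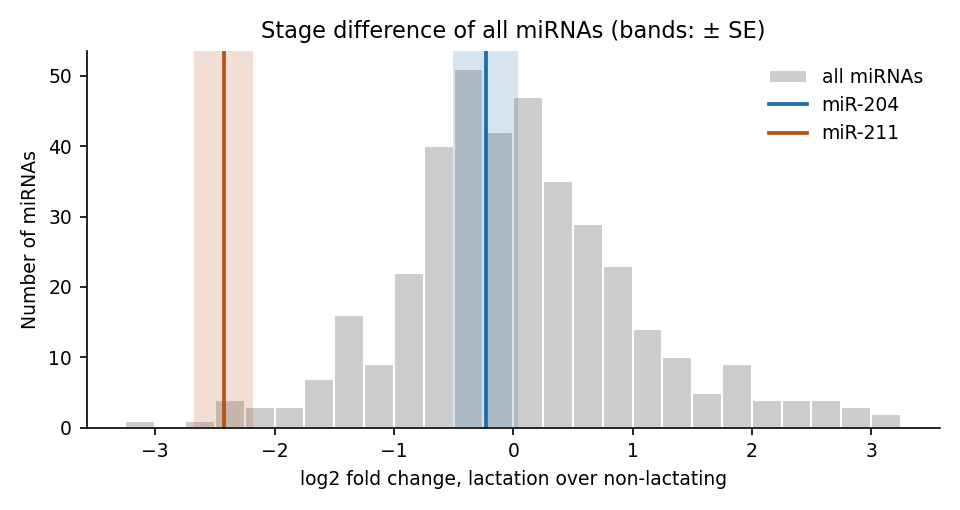
Distribution of the stage difference (log2 fold change, lactation over non-lactating) of all 388 miRNAs (grey, number of miRNAs per bin), with miR-204 and miR-211 as vertical lines and their SE as bands. MiR-211 at -2.43 lies in the far lower tail and miR-204 at -0.23 near the middle.

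The stage difference of miR-211 had the same sign in both phenotypes. Between cows of high milk protein percentage, HP over HD, its log2 fold change was -2.87 (SE 0.35), and between cows of low milk protein percentage, LP over LD, it was -1.98 (SE 0.35). The mean of HD was 12.5 times that of HP, and the mean of LD was 11.4 times that of LP. For miR-204 the corresponding values were 0.22 and -0.68 (SE 0.39 each). The difference between these phenotype-wise values is the same quantity as that between HP vs LP and HD vs LD, on which the members were selected, and was not tested.

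Some cell type markers differed between the stages as well, and their counts are to be read beside the 44.3% called among all miRNAs. Of 7 listed miRNAs of epithelium, 6 were higher in lactation and none lower, with a median log2 fold change of 1.09 beside -0.011 over all miRNAs. Among them miR-375 had 4362 ± 1516 normalized TPM in HP and 372 ± 130 in HD (SD, n = 3 each). Both arms of miR-126, a miRNA of endothelium, were also higher in lactation. Of 5 miRNAs of leukocytes 2 were called, and of 6 of smooth muscle and stroma 2, all lower in lactation. The 44.3% counts both directions, and 86 of the 172 miRNAs called were higher in lactation. Nothing is read from counts among so few members. Of 3 listed miRNAs of neurons and glia 1 was lower and 1 higher. None of the 3 miRNAs of skeletal muscle or of the 3 of erythrocytes passed in either direction. The part of tissue composition in the level of miR-211 was not tested.

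Because the members are so alike in sequence, the share of miR-211 in the summed reads of both is a measure that needs no scaling between libraries. In lactation this share was 0.812%, 0.911% and 1.42% in HP1, HP2 and HP3, and 0.787%, 0.666% and 1.03% in LP1, LP2 and LP3. The highest share was 2.13 times the lowest, and the 95% Wilson intervals of all 6 overlapped, the lowest starting at 0.307% and the highest ending at 2.98%. In the non-lactating period the share was 13.0%, 7.89% and 21.4% in HD1, HD2 and HD3, and 6.12%, 1.99% and 9.68% in LD1, LD2 and LD3. Here the libraries differed far beyond their counting intervals, which ran from 1.46% to 2.69% in LD2 and from 19.7% to 23.2% in HD3.

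The mean share was 0.937% in lactation and larger by 9.06 percentage points in non-lactating cows. The share was higher in 6 of 6 non-lactating libraries than in any lactation library. An exact permutation test, two-sided, gave p = 0.00216, which is the lowest value possible with 6 against 6 libraries, and 0.00325 after Benjamini-Hochberg adjustment over the 3 values tested (this share and the normalized level of each member). This test was added after the values had been seen, on members chosen with earlier results known. The level of miR-211 alone already did not overlap between the stages, so the p-value is not separate support. HP and LP overlapped in the share, and so did HD and LD. Only LD2 came near the lactation libraries, and its interval overlapped with those of HP1, HP2, HP3, LP1 and LP3.

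The authors' mapping allowed a mismatch, and the table holds no read sequences, so it does not show how reads were divided between the members. Whether some of the 3 to 18 reads of miR-211 in a lactation library came from miR-204 was not tested, and the lactation level of miR-211 is therefore uncertain.

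**Figure D3:**
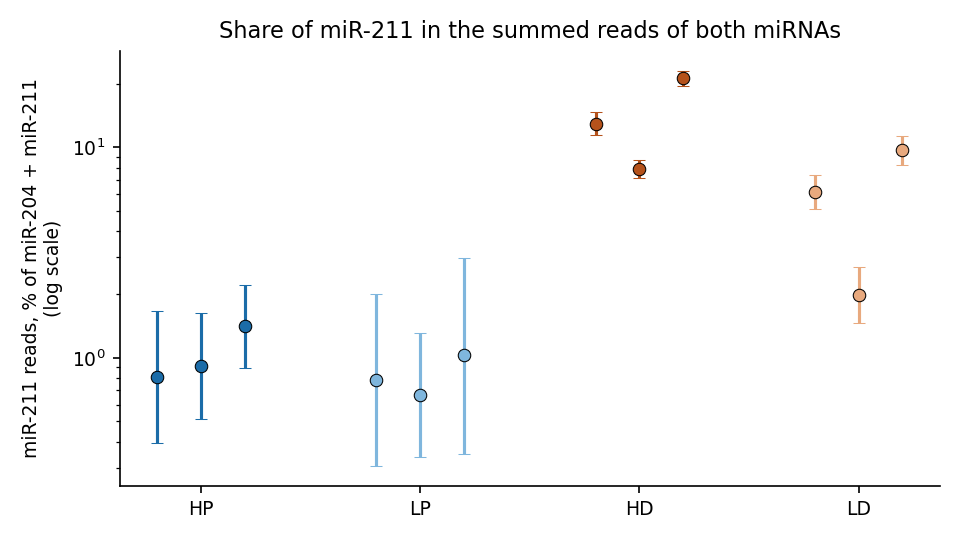
Reads of miR-211 in percent of the summed reads of miR-204 and miR-211 (log axis) for each library, with 95% Wilson intervals as bars. The 6 lactation libraries lie between 0.666% and 1.42%, and the non-lactating libraries between 1.99% and 21.4%.

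HP vs LP asked how miRNA expression differs with milk protein percentage in lactation. Both members had lower values in LP. MiR-204 had 149.6, 99.5 and 111 normalized TPM in HP1, HP2 and HP3 and 46.8, 93.3 and 38.9 in LP1, LP2 and LP3, so that LP1 and LP3 were low and LP2 lay just under HP2. The mean of HP was 2.01 times that of LP, and the log2 fold change of LP over HP was -1.13 (SE 0.38). MiR-204 was a DE miRNA by the rule used here (limma, unadjusted p under 0.05 with a log2 fold change beyond 0.8 in size), which 10.1% of all miRNAs met. After Benjamini-Hochberg adjustment 1 of the 388 miRNAs passed 0.05 in this comparison, and miR-204 did not. The groups did not overlap in normalized TPM, as for 20.6% of all miRNAs, but they did in deposited TPM, where LP2 exceeded HP2. Since the members were selected on this comparison, these values are a description and nothing is drawn from them.

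LP2 was taken at 70 days in milk and HP1, HP2 and HP3 at 80, 73 and 79, while LP1 and LP3 were taken at 85. LP1 and LP3, the low libraries of miR-204, were also the libraries of LP with high erythrocyte miRNAs. Without both of them the log2 fold change of miR-204 was -0.32 (SE 0.40) and it was not called, with LP represented by LP2 alone, which is assumed to vary like the HP libraries. Without LP1 it was -1.01, and without LP3 -0.85, and it was called in neither case. Of the erythrocyte list 2 of 3 were called higher in LP, miR-144 and miR-451, where 10.1% of all miRNAs were called. MiR-143 of smooth muscle and stroma was also called higher in LP (0.85), and miR-150 of leukocytes lower (-1.69). No other listed cell type marker was called in this comparison. The parts of blood, of other cell types and of days in milk in the level of miR-204 were not tested.

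MiR-211 had 1.22, 0.918 and 1.60 normalized TPM in HP1, HP2 and HP3 and 0.373, 0.624 and 0.405 in LP1, LP2 and LP3. The mean of HP was 2.67 times that of LP, and every HP library was above every LP library, a lack of overlap in normalized TPM shared by 20.6% of all miRNAs. The log2 fold change was -0.62 (SE 0.22) and, being smaller than 0.8, was not called. It depended on the added constant, and was -1.28 and called with 0.1, and -0.19 and not called with 5. Without LP1 and LP3 the log2 fold change was -0.46, with LP represented by LP2 alone. With at most 18 reads per library the size of this difference is poorly determined. Whether reads of miR-204 counted as miR-211 contribute to it was not tested.

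HD vs LD asked the same question in the non-lactating period. MiR-211 had 13.1, 13.6 and 20.1 normalized TPM in HD1, HD2 and HD3 and 4.79, 2.44 and 8.73 in LD1, LD2 and LD3. All HD libraries were above all LD libraries, and LD2 was the lowest. The mean of HD was 2.93 times that of LD, and the log2 fold change of LD over HD was -1.54 (SE 0.44). MiR-211 was called, as were 3.35% of all miRNAs by the same rule, and 9.54% did not overlap in normalized TPM. LD2, the library with the highest erythrocyte miRNAs, had 1.86 TPM, and without it the log2 fold change was -1.18 and miR-211 was still called. Of 5 leukocyte miRNAs 2 were called higher in LD, both arms of miR-142, and none lower. Of 2 miRNAs of endothelium 1 was called higher in LD, miR-126-5p. No other listed cell type marker was called in this comparison. This comparison too was among those on which the members were selected, so it stands as a description.

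MiR-204 had 87.9, 159 and 74.0 normalized TPM in HD1, HD2 and HD3 and 73.6, 120 and 81.5 in LD1, LD2 and LD3. The groups overlapped, with replicate 2 the highest library in each. The log2 fold change was -0.21 (SE 0.37) and was not called. It was 0.11 without HD2 and -0.43 (SE 0.41) without LD2, and was not called in either case. LD2 was thus the highest LD library for miR-204 and the lowest for miR-211.

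The non-lactating libraries were also described by days before calving. HD1, HD2 and HD3 were taken 35, 29 and 21 days before calving, and LD1, LD2 and LD3 39, 23 and 20 days before. Ordered from the farthest to the nearest to calving, miR-204 had 73.6 (LD1), 87.9 (HD1), 159 (HD2), 120 (LD2), 74.0 (HD3) and 81.5 (LD3) normalized TPM. The middle libraries were the highest, with no steady rise or decline. MiR-211 in the same order had 4.79, 13.1, 13.6, 2.44, 20.1 and 8.73 normalized TPM. Within HD the library nearest to calving was the highest and within LD likewise. In deposited TPM the order turned, with the libraries farthest from calving, HD1 and LD1, the highest of their groups.

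With HD and LD as a term, the slope per 10 days farther from calving was -0.064 (SE 0.26) for miR-204 and -0.22 (SE 0.29) for miR-211 on the log2 scale. Neither was called at an unadjusted p under 0.05, while 27.3% of all miRNAs were. The sign of both slopes depended on scaling: without size factors they were 0.46 and 0.24. The libraries farthest from calving, LD1 and HD1, had the largest size factors of all 12 libraries, against 0.764 to 1.11 in the other 4 non-lactating libraries, so scaling and days moved together. Without LD2 the slopes were 0.066 (SE 0.25) for miR-204 and -0.38 (SE 0.19) for miR-211, and neither was called. No dependence on days was detectable for either member with 6 cows.

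**Figure D4:**
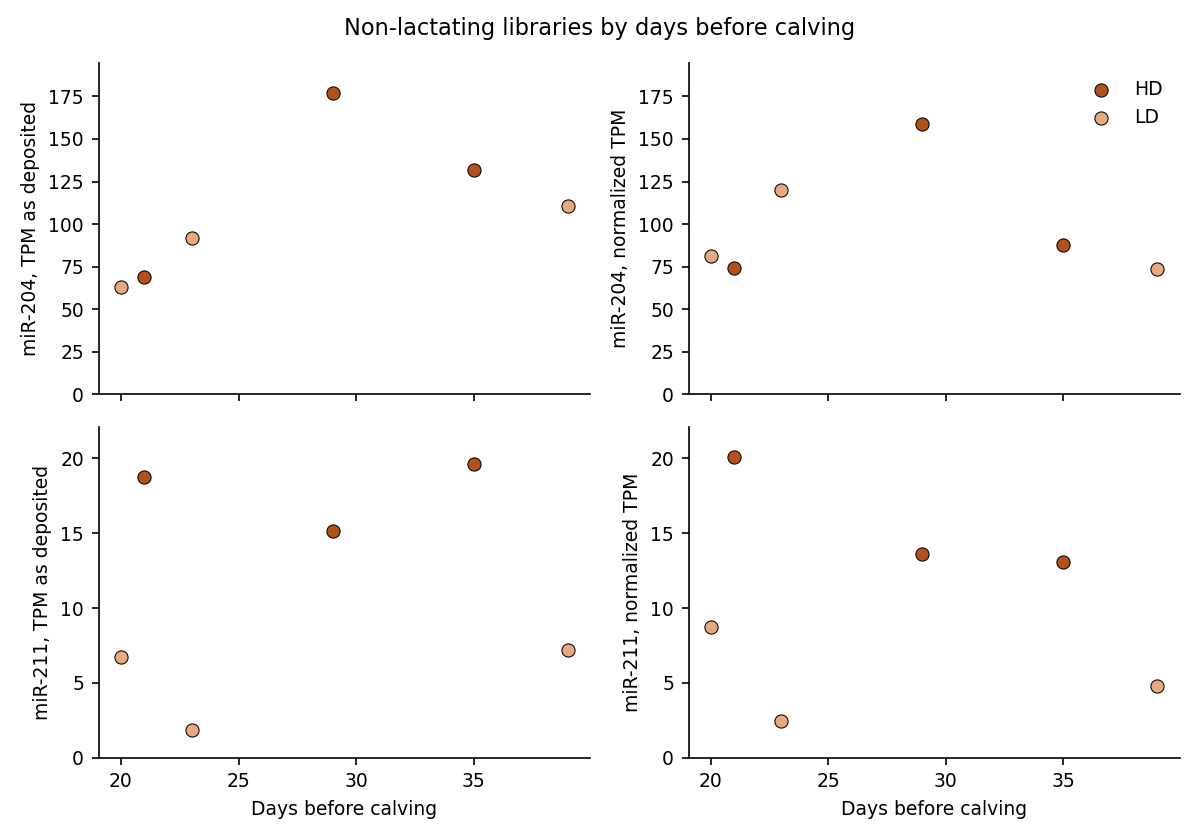
Level of miR-204 (top) and miR-211 (bottom) in the non-lactating libraries against days before calving, as deposited TPM (left) and normalized TPM (right), HD and LD in different colours. MiR-204 in LD1, at 39 days, is 110.35 TPM as deposited and 73.6 after normalization, and every HD library lies above every LD library for miR-211.

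The levels of the members were compared with each other across libraries within each stage, since the stages form separate clusters. In lactation Pearson's r on the log2(normalized TPM + 1) scale was 0.85 and Spearman's rho 0.89 over 6 libraries (exact permutation p = 0.0333 for each, adjusted p = 0.0667 over the 2 stages for each). These values include the difference between HP and LP on which the members were selected. The relation rested on LP1 and LP3, without which r was 0.57, and the deviations from the group means had r = 0.53. In the non-lactating period r was -0.12 and rho 0.029 (exact permutation p = 0.786 and 1.0), without HD2 and LD2 r was 0.18, and the deviations from the group means had r = -0.58. The difference between the stages in this relation was not tested. In lactation miR-211 rested on 3 to 18 reads, a share of 0.666% to 1.42% of both members. Whether reads of miR-204 counted as miR-211 contribute to the relation there was not tested.

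**Figure D5:**
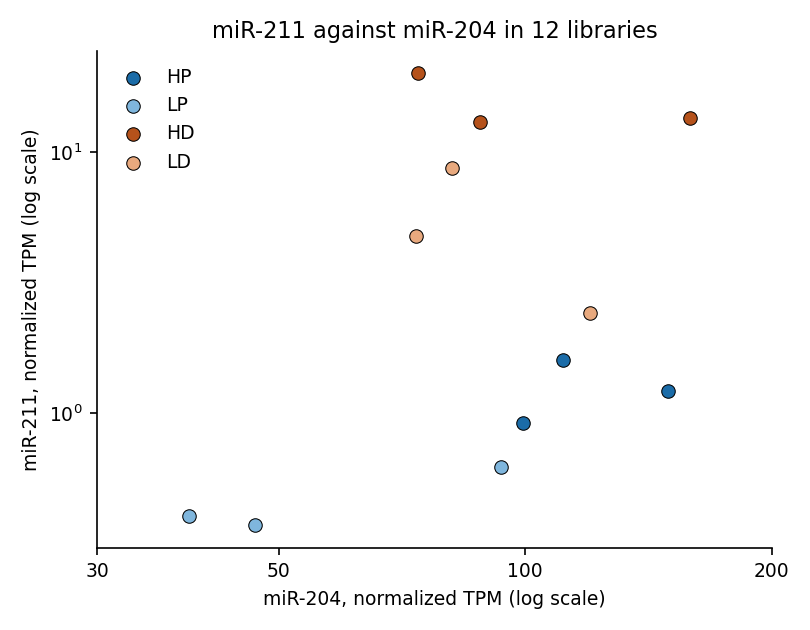
Normalized TPM of miR-211 against that of miR-204 (both log axes), one point per library, coloured by group. In lactation LP1 and LP3 lie at the lower left, and the non-lactating libraries spread over miR-211 with no common line.

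Among miRNAs with a mean of at least 10 TPM, those most like each member over the 12 libraries were found by Pearson's r of log2(normalized TPM + 1), given as a description. For miR-204 they were miR-222 (r = 0.78), miR-199b (0.74), miR-1388-3p (0.72), miR-125b (0.70) and let-7e (0.67). All 5 had their lowest group mean in LP, as miR-204 did, which the choice by r favours. MiR-222 had 750, 464, 808 and 720 normalized TPM in HP, LP, HD and LD. Within lactation the 5 correlations ranged from 0.71 to 0.87, and within the non-lactating libraries from 0.23 (miR-1388-3p) to 0.94 (miR-222). The deviations from group means also enter the r used for the choice, so likeness among them is not separate support. There r was 0.73 for miR-222, 0.68 for miR-199b, 0.54 for miR-1388-3p, 0.45 for miR-125b and 0.62 for let-7e. MiR-222 is known from vessels and the cell cycle, and miR-199b from stroma.

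For miR-211 the most alike were miR-93 (r = 0.94), miR-154b (0.89), miR-369-5p (0.89), miR-455-3p (0.89) and miR-181d (0.89). All 5 had their highest group mean in HD and the second highest in LD, as miR-211 did, an order that the choice by r favours. MiR-93, of a cluster known in cell proliferation, had 638 and 661 normalized TPM in HP and LP and 1782 and 1408 in HD and LD, and miR-181d had 17.9 and 23.4 against 131 and 96.9. Within lactation, where miR-211 rests on few reads, the correlations ranged from -0.79 to 0.39. Within the non-lactating libraries they were 0.88 for miR-93, 0.75 for miR-154b, 0.74 for miR-369-5p, 0.56 for miR-455-3p and 0.57 for miR-181d, and among the deviations from group means they ranged from 0.26 to 0.58. The members themselves had r = 0.27 over the 12 libraries. All these correlations share their libraries and size factors.

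Of 10 other miRNAs described as acting on RUNX2, 6 were in the table. In the stage comparison 1 of the 6 was lower in lactation and none higher, beside 44.3% called among all miRNAs, with a median log2 fold change of 0.019 beside -0.011 over all miRNAs. The lower member was miR-218, with a log2 fold change of -0.72 (SE 0.21, adjusted p = 0.0158, limma). Its level was 41.0 and 64.4 normalized TPM in HP and LP, and 79.2 and 94.3 in HD and LD, the nearest in the list to that of miR-204. None of the 6 was called in HP vs LP, in HD vs LD or for days before calving, where 10.1%, 3.35% and 27.3% of all miRNAs were. At these shares nothing is read from the absence of calls among 6 miRNAs. The most abundant, miR-205, an epithelial miRNA, had 12606, 8592, 12524 and 9646 normalized TPM in HP, LP, HD and LD.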

How the data were processed

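Small RNA libraries of 12 mammary biopsies were sequenced. The authors trimmed reads with Cutadapt and Trimmomatic, mapped them to the bovine genome with Bowtie and counted known miRNAs with miRDeep2. The deposited table holds RPM values, which the authors call TPM, for 426 pairs of mature miRNA and precursor. Where a mature miRNA had several precursors, only the entry of highest mean entered, which left 388. Groups follow the sample labels, and days come from the study's list of cows. The number of counted reads implied by the spacing of low values was 6026797 to 23577942 per library. All values of up to 20 reads were whole multiples of the value of a single read, within 0.0055 TPM. These totals are inferred and are not the sequencing depth. The highest lie close to the clean reads per library that the paper reports before mapping. In the paper not all clean reads mapped, and part of the mapped reads fell on other small RNAs. The highest totals are therefore likely above the number of different reads on miRNAs, and the reason was not tested.

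Values were scaled by size factors (median of ratios, from the libraries fitted) and analysed as log2(normalized TPM + 1). All 388 miRNAs were fitted with limma 3.58.1 in R 4.3.3 (empirical Bayes with trend), with HP vs LP and HD vs LD over 6 libraries each, stage over 12 with 4 group means, and days over 6. The counting test of the study needs read counts, so limma took its place. Exact permutation tests, Wilson and Poisson intervals used scipy 1.17.1 in Python 3.11.15. The fits were tested on simulated data. The members and lists were chosen with earlier results of these data known. Named are the members, the 5 miRNAs most like each, and members of fixed lists of miRNAs acting on RUNX2 and of cell type markers. The alternatives were other scalings, pseudocounts and filters, no trend, every precursor, a replicate block, all libraries in 1 fit, days after dry-off, and leaving out libraries. The number of unused columns was 0. Host genes are those of RefSeq. P-values measure the spread between cows. Sequences were not analysed here.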

Additional observations from a re-analysis of the deposited data

How the results depend on the processing

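In HP vs LP 39 miRNAs were called, 22 with a pseudocount of 5, 21 without LP1 and LP3, and 24 to 53 when single libraries were left out. MiR-204 was then -0.32 without LP1 and LP3, and -1.53 to -0.85 without single libraries. MiR-211 was -1.28 with a pseudocount of 0.1 and -0.19 with 5. In HD vs LD 13 were called, 3 without size factors, 7 with a pseudocount of 5, and 6 (without HD2) to 36 (without LD1), with 8 without LD2. MiR-204 ranged from -0.43 to 0.11 and miR-211 from -1.94 to -1.18 without single libraries. For stage 172 were called, 113 with a mean of at least 10 TPM and 94 without LP1, LP3 and LD2, where miR-204 was 0.27. For days before calving 106 were called, 181 without size factors, 47 by days after dry-off and 36 (without LD1) to 116. MiR-204 had slopes of 0.46 without size factors and -0.30 to 0.37 (without LD1) when single libraries were left out. MiR-211 had 0.24 without size factors, 0.90 by days after dry-off and -0.57 (without LD1) to 0.078 (without LD3). Pearson's r in lactation was 0.57 without the 2 farthest libraries. The cause was not tested in any of these cases, except that fewer miRNAs were tested with a filter. Of the calls, 23 of 39 (HP vs LP), 8 of 13 (HD vs LD), 86 of 172 (stage) and 53 of 106 (days) were positive. Scaled to the library median these were 14 of 41 in HP vs LP and 6 of 14 in HD vs LD. Without size factors they were 0 of 3 in HD vs LD, 56 of 138 for stage and 173 of 181 for days. The share of miR-211 differed between the stages by 6.79 to 10.7 percentage points without single libraries. Apart from leaving out single libraries, 103 values under the alternatives stayed within the limits set (the same direction and call, a shift below the spread or SE, or a similar count), and the other 16 are those above. Without single libraries 94 did so and 8 did not. A small shift counted as within the limits even where the sign or the call changed. Examples are miR-204 in HP vs LP without LP1 or without LP3 (not called) and in HD vs LD without HD2 (0.11). Its slope without LD2 (0.066) and by days after dry-off (0.064) also changed sign. So did r in the non-lactating period without size factors (0.29) and without HD2 and LD2 (0.18).

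With the replicate number as a block, 34 (HP vs LP), 17 (HD vs LD) and 170 (stage) miRNAs were called, and no call of either member changed. The deviations of libraries with the same number had r of -0.26 to 0.012 in HP vs LP and -0.11 to 0.54 in HD vs LD, and 0 of 6 and 4 of 6 libraries correlated best with their own number. Since not every pair was over 0.1, the numbers were not taken as a pairing. EdgeR and DESeq2 were not run, because too few low values per library were left to recover all reads. MiR-211 has no value with a mean of at least 10 TPM in HP vs LP and stage. The number of counted reads limits miR-211 in lactation, at 3 to 18 implied reads.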
